A study of Mus musculus with 6 samples.

Results

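The 4 genes that encode CaM kinase II, Camk2a, Camk2b, Camk2d and Camk2g, were examined by RNA sequencing of EDL (extensor digitorum longus), a hindlimb muscle made mostly of fast-twitch fibers. They were taken by symbol from the 24411 genes in the table of estimated counts, and all 4 were among the 12892 genes that passed the filter on low counts. Muscles came from 3 mAktDKO mice and 3 control floxed mice, all of the C57BL/6J background and at the age of 50 weeks. Both groups carry floxed alleles of Akt1 and Akt2, the kinases that pass on the insulin signal, and the mAktDKO mice carry in addition Cre recombinase knocked in behind the Mlc1f promoter. By the paper's account, this promoter has little activity in satellite cells, and Akt activity was reduced more in fast-twitch than in slow-twitch muscle. The mAktDKO mice are numbered 1 to 3 and the control mice 2 to 4, as in the table, and the numbers do not pair mice. The genes were chosen with their difference between the genotypes already known. Therefore, the difference is described here with its standard error and without p-values, and the counts of calls in the fit over all genes support nothing about it.

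CaM kinase II is a serine/threonine kinase that is switched on when calcium-loaded calmodulin binds to it. Its subunits assemble into a ring-like holoenzyme, in which active neighbors phosphorylate each other on a threonine next to the calmodulin-binding stretch, and a subunit so modified stays active after calcium has fallen. In skeletal muscle the kinase responds to contraction, acts on calcium channels and pumps of the sarcoplasmic reticulum, and phosphorylates class II histone deacetylases that hold back MEF2-driven genes. The alpha and beta subunits are best known from the brain, the beta, gamma and delta subunits are found in muscle, and the Camk2a gene has a further product in muscle, alpha-KAP, an anchoring protein without the kinase domain.

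In mm10 (GRCm38), with the gene models of GENCODE M21, Camk2b (ENSMUSG00000057897) lies on chromosome 11 from 5969644 to 6066362 on the minus strand. Camk2d (ENSMUSG00000053819) lies on chromosome 3 from 126596302 to 126846326 on the plus strand, and Camk2g (ENSMUSG00000021820) on chromosome 14 from 20734875 to 20794088 on the minus strand. No other annotated gene shares exon bases with any of the 4 genes.

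The exonic coding sequence around the autophosphorylated threonine, the residue that keeps the kinase active, is shown for 3 of the genes, 63 bases each, 5′ to 3′ on the coding strand, with the codon of threonine 287 in capitals.
Camk2b: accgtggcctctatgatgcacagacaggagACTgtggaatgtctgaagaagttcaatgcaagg
Camk2d: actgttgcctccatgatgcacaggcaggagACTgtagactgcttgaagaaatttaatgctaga
Camk2g: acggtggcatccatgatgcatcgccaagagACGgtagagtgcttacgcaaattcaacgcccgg
Camk2b and Camk2d had the same base at 51 of the 63 positions (81.0%), Camk2d and Camk2g at 45 (71.4%), and Camk2b and Camk2g at 43 (68.3%). The longest identical run between any pair of these 3 was 11 bases. Thus a 37-base read has several differences to tell the genes apart even in this conserved stretch.

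In the stretch shown above, the longest run that Camk2a shares with Camk2b was 17 bases. Across all annotated transcripts, 0 of the 37-base windows of a CaM kinase II gene occurred in another CaM kinase II gene, and at most 0.548% (Camk2a) occurred in any other gene. All deposited values of Camk2b, Camk2d and Camk2g were whole numbers, whereas 2 of the 6 values of Camk2a were not.

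A count per gene does not say which transcript the reads came from, and this matters most for Camk2a (ENSMUSG00000024617), which lies on chromosome 18 of mm10 from 60925618 to 60988152 on the plus strand. Of its 3 transcripts that carry a RefSeq tag, 1 encodes a kinase of 478 residues with threonine 286. The other 2, of 1734 and 979 bases, encode proteins of 189 and 200 residues and lack the autophosphorylation site. Every RefSeq-tagged transcript of Camk2b, Camk2d and Camk2g holds the site. The Camk2a counts can therefore not be read as counts of the alpha kinase.

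Total counts were between 13738795 and 15445523 per mouse, and a gene at the floor of 3 counts lay at 0.180 to 0.227 CPM (counts scaled to the library total, with totals adjusted by the TMM method). Akt2 was 172, 133 and 143 CPM in controls and 51.3, 49.1 and 52.7 CPM in mAktDKO animals. It differed by -1.55 on the log2 scale, mAktDKO minus control (standard error, SE, 0.106, edgeR quasi-likelihood adjusted p = 0.000923). Akt1 differed by -0.25 (SE 0.0798, adjusted p = 0.115), with every mAktDKO mouse below every control mouse. EDL was rich in the fast myosin Myh4, at 50000 CPM in the mAktDKO mice and 50600 CPM in the control mice, against 477 and 256 CPM of the slow myosin Myh7.

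Camk2b and Camk2g were lower in the mAktDKO mice, to 64.8% and 80.5% of the control mean, while the values of Camk2a and Camk2d overlapped between the genotypes. The RNA is from whole muscle, so fewer cells of a type and less RNA per cell cannot be told apart. Camk2b, the beta subunit, had 174, 160 and 172 CPM in control mice 2 to 4 and 108, 110 and 110 CPM in mAktDKO mice 1 to 3. All mAktDKO mice were lower than all control mice, the nearest pair being 49.8 CPM apart. The mean was 169 ± 7.57 CPM in controls and 109 ± 1.49 CPM in mAktDKO animals (SD, n = 3 each), which is a log2 fold change of -0.63 (SE 0.074).

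Camk2g, the gamma subunit, had 163, 159 and 167 CPM in controls and 125, 128 and 140 CPM in mAktDKO animals. Again the groups did not overlap, with a gap of 19.0 CPM, and mAktDKO mouse 3 was the nearest to the controls. The mean was 163 ± 3.88 CPM in controls and 131 ± 7.90 CPM in mAktDKO animals (SD, n = 3 each), which is a log2 fold change of -0.31 (SE 0.078). Without mAktDKO mouse 3 the log2 fold change was -0.38.

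Camk2d, the delta subunit, had 59.8, 76.0 and 68.0 CPM in controls and 63.0, 66.3 and 59.2 CPM in mAktDKO animals. Control mouse 2 was among the mAktDKO values, and the spread was wider in the control group. The mean was 67.9 ± 8.08 CPM in controls and 62.8 ± 3.54 CPM in mAktDKO animals (SD, n = 3 each), and the log2 fold change was -0.11 (SE 0.101). It was -0.20 without control mouse 2 and -0.03 without control mouse 3.

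Camk2a, the gene of the alpha subunit and of alpha-KAP, had 332, 346 and 336 CPM in controls and 342, 334 and 383 CPM in mAktDKO animals. The control mice were within a narrow range, and only mAktDKO mouse 3 lay above it. The mean was 338 ± 7.06 CPM in controls and 353 ± 26.5 CPM in mAktDKO animals (SD, n = 3 each), the log2 fold change was 0.06 (SE 0.084), and without mAktDKO mouse 3 it was -0.02.

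**Figure D1:**
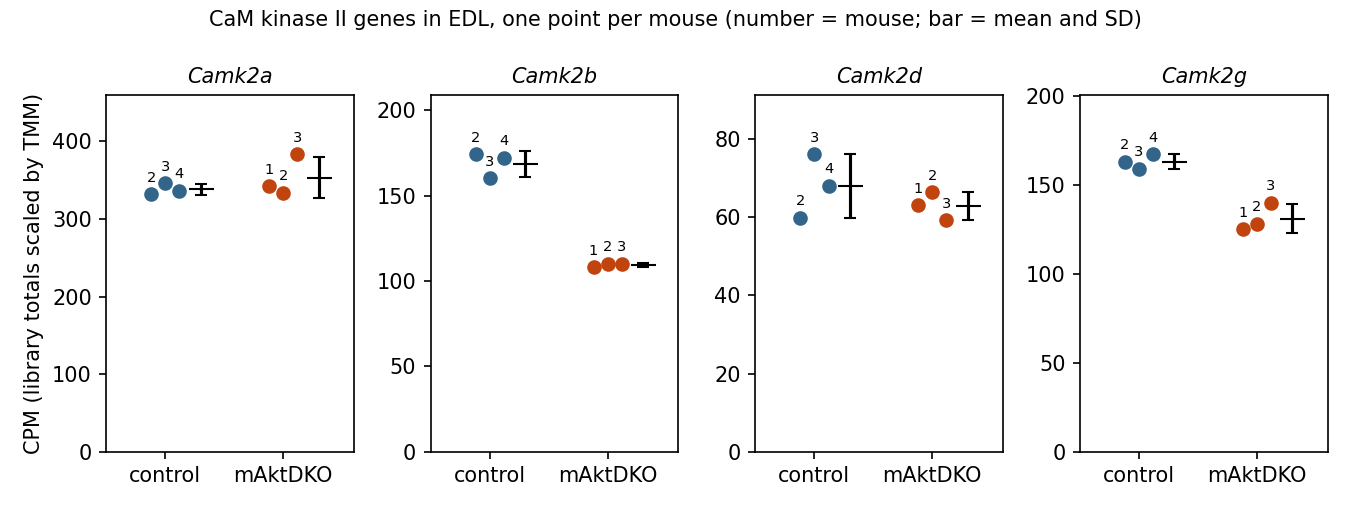
Level of the 4 CaM kinase II genes in EDL, in CPM with library totals scaled by TMM, 1 point per mouse with its number, and beside each group a black bar for the mean and SD (n = 3 per group). Camk2b (108 to 110 against 160 to 174 CPM) and Camk2g (125 to 140 against 159 to 167 CPM) were lower in every mAktDKO mouse than in any control mouse, and the points of Camk2a and Camk2d overlap.

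Markers of fast fibers are given here beside Camk2b and Camk2g. All 7 had a log2 fold change below 0 with TMM, against 5 of 7 with library totals (median -0.06), and 6 of 7 with TMM without mAktDKO mouse 2 or without control mouse 3, where Myh4 was at 0.02 and 0.05. By edgeR 0 of the 7 passed 0.05, where 1.18% of all genes passed, and 3 had an unadjusted p under 0.05, where 24.5% did. By DESeq2 3 of the 7 passed 0.05, where 8.17% of the 9616 genes with an adjusted p passed. The 7 markers had a median of -0.20 (-0.30 without control mouse 2). Their sum was 79300 to 88200 CPM in the mAktDKO mice and 89200 to 98200 CPM in the control mice. Of the most abundant per length, Myh4 was at -0.02, Tnnt3 at -0.15 and Mylpf at -0.20 (-0.30 without control mouse 2, -0.07 without control mouse 3). The 3 that DESeq2 called, named here after their values were seen, were Tnni2 at -0.59, Myh1 at -0.51 and Pvalb at -0.41, all without overlap. By edgeR, Tnni2 and Myh1 were under 0.05 with no filter (381 of all genes passed) and with at least 10 counts in every mouse (264). Tnni2 was also under 0.05 without control mouse 4 (388). The 6 slow fiber markers were all above 0, with a median of 0.46 (0.28 without mAktDKO mouse 2, 0.29 without control mouse 2, 0.73 without control mouse 3), and their sum overlapped, from 388 to 849 against 277 to 538 CPM. By edgeR 0 of the 6 passed 0.05, by DESeq2 1 did, and 2 had an unadjusted p under 0.05. The part of the fiber markers in the CaM kinase II values was not tested.

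In the fit over all genes, 1 of the 4 genes (Camk2b) had an adjusted p under 0.05 and 0 of the 4 an adjusted p under 0.01, the threshold of the study, by edgeR's quasi-likelihood test. Of all genes tested, 1.18% passed 0.05 (0.915% lower and 0.264% higher in the mAktDKO mice) and 0.0233% passed 0.01. At an unadjusted p under 0.05, the count was 2 of 4 (Camk2b and Camk2g), against 24.5% of all genes. DESeq2's Wald test had Camk2b under 0.01, as had 3.55% of the genes it tested, and also Camk2g under 0.05, as had 8.17%. With no filter on low counts, edgeR had Camk2b alone of the 4 under 0.01, as 0.184% of all genes were, and under 0.05, as 2.19% were. Camk2b was no longer under 0.05 when any 1 of the 3 mAktDKO mice was left out, although its log2 fold change stayed between -0.66 and -0.60 without any 1 of the 6 mice. The groups did not overlap for 2 of the 4 genes and for 31.1% of all genes. As the genes were chosen by this comparison, these counts are a description. In the plot of change against level, the 4 genes are among the more abundant ones, with between 85.0% and 98.0% of the tested genes at a lower mean CPM.

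**Figure D2:**
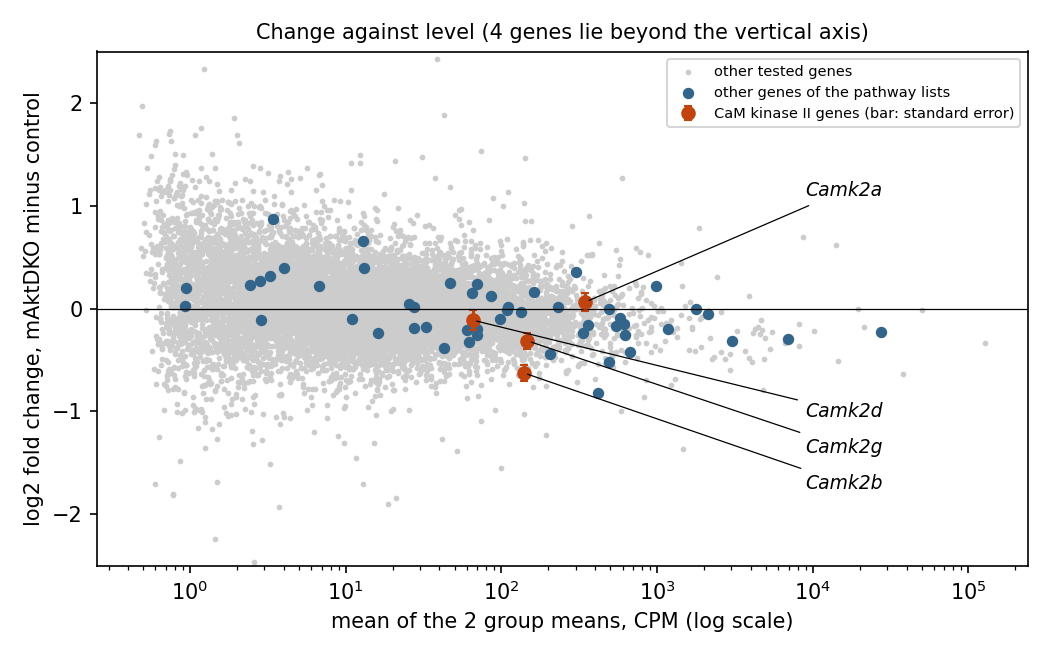
Log2 fold change (mAktDKO minus control) against the mean CPM on a log scale for the 12892 tested genes in gray, the other genes of the CaM kinase pathway lists in blue, and the CaM kinase II genes in red with their standard error. Camk2b at -0.63 and Camk2g at -0.31 lie in the lower part of the cloud, Camk2a at 0.06 and Camk2d at -0.11 close to 0, and 4 genes lie beyond the vertical axis.

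The log2 fold change of a gene depends on how the libraries are scaled, but the ratio of genes within a mouse does not. For every 100 counts of Camk2a there were 31.5, 33.0 and 28.8 counts of Camk2b in the mAktDKO mice and 52.5, 46.3 and 51.2 in the control mice. For Camk2g the ratio to 100 Camk2a counts was 36.6, 38.4 and 36.6 in the mAktDKO mice and 49.0, 46.0 and 49.7 in the control mice. Neither ratio overlapped between the genotypes, whereas that of Camk2d overlapped, with 15.5 to 19.9 in the mAktDKO mice and 18.0 to 22.0 in the control mice. Camk2b was also lower relative to Camk2g, with 86.1, 86.0 and 78.8 counts per 100 in the mAktDKO mice and 107, 101 and 103 in the control mice. For every 100 counts of Camk2d there were 171, 166 and 186 counts of Camk2b in the mAktDKO mice and 291, 211 and 253 in the control mice. Thus Camk2b was lower in all mAktDKO mice relative to each of the other 3 genes, whatever the scaling.

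To compare levels between the genes, CPM was divided by the length of the transcripts. With the median length of the RefSeq-tagged transcripts (1734 bases for Camk2a, 4004 for Camk2b, 4174.5 for Camk2d and 3604 for Camk2g), the control mice had 195 ± 4.07 CPM per kb of Camk2a, 45.2 ± 1.08 of Camk2g, 42.2 ± 1.89 of Camk2b and 16.3 ± 1.94 of Camk2d (SD, n = 3). In the control mice Camk2g and Camk2b were neighbors, from 44.1 to 46.3 and from 40.0 to 43.5 CPM per kb. With the longest transcripts the ranges overlapped, from 43.0 to 45.1 and from 39.8 to 43.3 CPM per kb, although with either length Camk2g was above Camk2b within each of the 3 control mice. In the mAktDKO mice the levels were 204 ± 15.3, 36.4 ± 2.19, 27.3 ± 0.373 and 15.1 ± 0.847 CPM per kb in the same order, and Camk2g lay above Camk2b without overlap. The place of Camk2a depends on which of its transcripts were present. With the longest transcript, 4970 bases, its level was 68.0 CPM per kb in the control mice and 71.0 in the mAktDKO mice, still the highest of the 4.

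By these levels Camk2b made up 14.8%, 13.3% and 14.4% of the summed CaM kinase II transcripts in the control mice and 9.83%, 10.1% and 9.14% in the mAktDKO mice. The share of Camk2a was 65.3% ± 0.712 in the control mice and 72.1% ± 1.18 in the mAktDKO mice (SD, n = 3), that of Camk2g 15.1% ± 0.454 and 12.9% ± 0.203, and that of Camk2d 5.45% ± 0.584 and 5.36% ± 0.588. Without Camk2a, the shares among the other 3 genes were 40.7% ± 1.58 of Camk2b in the control mice and 34.7% ± 0.458 in the mAktDKO mice. There the shares of Camk2g and Camk2d were higher in the mAktDKO mice, with 43.1% to 43.9% against 45.0% to 48.2% for Camk2g, without overlap, and a mean of 15.7% ± 1.95 against 19.1% ± 1.34 for Camk2d, with overlap. With the longest transcripts, the share of Camk2b was 25.2% ± 1.17 in the control mice and 18.8% ± 0.771 in the mAktDKO mice. At these lengths the mean shares in control and mAktDKO mice were 40.9% and 48.9% for Camk2a and 26.5% and 24.4% for Camk2g. For Camk2d they were 7.4% and 7.87%, with overlap, so its direction turned. The summed level was 274, 272 and 302 CPM per kb in the mAktDKO mice and 295, 302 and 299 in the control mice, a log2 ratio of -0.08 with overlap. It was 0.055 with library totals in place of TMM. With the longest transcripts the sum was 141, 141 and 153 CPM per kb in the mAktDKO mice and 165, 166 and 168 in the control mice, a log2 ratio of -0.20 without overlap. Since Camk2a is the largest part of the sum, it was also computed without Camk2a, an alternative added after the data were seen. With the median lengths and without Camk2a it was 76.7, 79.0 and 80.6 CPM per kb in the mAktDKO mice and 103, 102 and 106 in the control mice, a log2 ratio of -0.40.

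**Figure D3:**
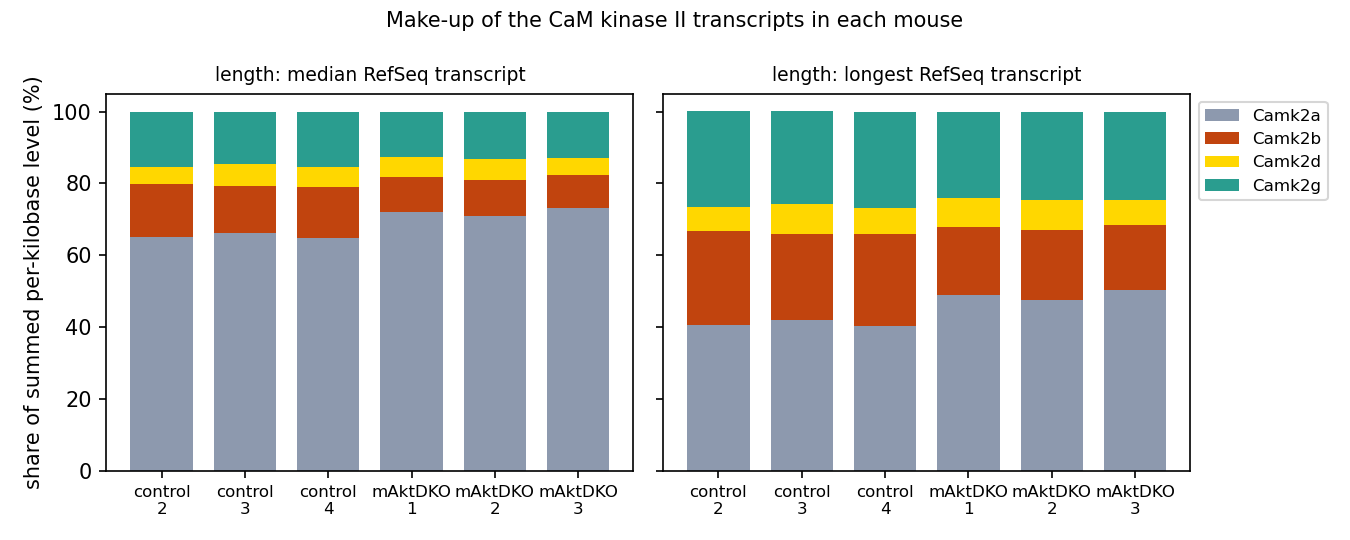
Share of each gene in the summed per-kilobase level of CaM kinase II transcripts, in percent, 1 bar per mouse, with the median (left) and the longest (right) RefSeq-tagged transcript as the length. Camk2b takes 13.3% to 14.8% in the control mice and 9.14% to 10.1% in the mAktDKO mice on the left, and Camk2a takes the largest share in both panels.

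The 4 genes differed in how they varied over the 6 mice. Pearson's r of log2 CPM was 0.96 between Camk2b and Camk2g, 0.34 between Camk2b and Camk2d, 0.28 between Camk2d and Camk2g, -0.18 between Camk2a and Camk2g, -0.31 between Camk2a and Camk2d and -0.44 between Camk2a and Camk2b. These values are descriptions over 6 mice that share the genotype split and the scaling. The genes whose pattern was most like Camk2b among 12891 others were Xpa, a DNA repair factor (r = 0.997), Atp6v1g1, a subunit of the vacuolar proton pump (r = 0.9961), and Crybb1, a crystallin (r = 0.9956), and 604 genes had an r over 0.9. Crybb1 was near the floor, at 0.254 to 0.3 CPM in the mAktDKO mice and 0.73 to 1.05 CPM in the control mice. Xpa was also low, at 1.2 to 2.59 CPM. For Camk2g the most alike genes were Cacna1s, the voltage sensor of excitation-contraction coupling (r = 0.996), Ppp1cb, a catalytic subunit of protein phosphatase 1 (r = 0.9951), and Itsn1, an endocytic scaffold (r = 0.9935), with 387 genes over 0.9. For Camk2d they were Eaf1 (r = 0.9873), Eps15l1 (r = 0.9817) and Ndufaf4 (r = 0.979), none of which separated the genotypes, and 63 genes were over 0.9.

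The genes most like Camk2a were Dnajb1, a heat shock cochaperone (r = 0.9866), Atf3, a stress-induced transcription factor (r = 0.9817), and Mthfd2, an enzyme of mitochondrial folate metabolism (r = 0.9813). For Camk2a 38 genes had an r over 0.9. All 3 named genes were highest in mAktDKO mouse 3. Dnajb1 was 31.9 CPM there and 7.27 to 11.0 CPM in the other 5 mice, and Atf3 was 108 CPM there and 9.76 to 27.8 CPM in the others. Their part in the high Camk2a value of this mouse was not tested.

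The RefSeq table used here held no promoter for Camk2g, and Camk2a was left out of the promoter search. The promoters of Camk2b, whose level differed between the genotypes, and of Camk2d, whose values overlapped, are printed. Both are the 250 bases before the start that RefSeq gives, which is 614 bases (Camk2b) and 649 bases (Camk2d) inside the longer GENCODE models given above. They are written 5′ to 3′ on the gene's own strand, from GRCm38.p6, with GC boxes (GGGCGG on either strand) in capitals. Camk2b is from chr11:6065749-6065998 on the minus strand and Camk2d from chr3:126596701-126596950 on the plus strand.
Camk2b: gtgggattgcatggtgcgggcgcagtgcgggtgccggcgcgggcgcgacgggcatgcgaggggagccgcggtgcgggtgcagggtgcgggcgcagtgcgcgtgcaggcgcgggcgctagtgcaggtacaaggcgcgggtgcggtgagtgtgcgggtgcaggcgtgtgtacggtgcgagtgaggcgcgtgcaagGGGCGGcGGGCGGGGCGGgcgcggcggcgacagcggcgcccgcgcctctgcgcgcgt
Camk2d: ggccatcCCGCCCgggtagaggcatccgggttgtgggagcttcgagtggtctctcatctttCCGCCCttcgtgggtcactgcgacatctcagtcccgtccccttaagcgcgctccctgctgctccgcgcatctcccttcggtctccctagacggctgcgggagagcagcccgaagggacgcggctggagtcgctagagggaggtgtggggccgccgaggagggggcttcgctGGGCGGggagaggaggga
GC content was 78.4% in the Camk2b window and 68.4% in the Camk2d window, above the median of 52.4% over 32851 windows of the same length. Each held 3 GC boxes, a motif present in 32.7% of all windows, and the last 2 in Camk2b share a base. All motifs were searched on both strands. Neither held the FoxO core GTAAACA, the motif of the transcription factors that Akt keeps out of the nucleus, which is in 3.17% of all windows. Neither held an E-box CANNTG (66.2% of windows), a MEF2 motif (2.92%) or the cyclic AMP response element TGACGTCA (1.55%). The search says only that these letters are not in these windows.

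Genes listed around the kinase were those of calmodulin, its inhibitors, phosphatases and anchors, other calmodulin-dependent kinases, and the sarcoplasmic reticulum calcium cycle. Nuclear and metabolic genes tied to CaM kinase signaling were listed too. Of these 54 genes, 51 passed the filter. The other 3 were Camk1g, Mylk3 and Lrrc7, with at most 6, 10 and 1 counts in a mouse. Of these, 1 fell and 0 rose at an adjusted p under 0.05 by edgeR's quasi-likelihood test, where 1.18% of all genes passed. At 0.01, 0 passed by edgeR and 3 by DESeq2's Wald test, which called 3.55% of the 9616 genes it gave an adjusted p. Of the 51 genes, it gave none to Camk2n2, Pnck, Camk4, Camkk1, Ppm1e, Ryr3, Pln and Sln. At an unadjusted p under 0.05 there were 15 of the 51, where 24.5% of all genes passed, a share that also stands beside the counts at an unadjusted p in the lists below. The median log2 fold change of the 51 genes was -0.05, against 0.017 over all genes, with 21 above and 30 below 0. With library totals in place of TMM it was 0.08, with 30 above and 21 below 0, against 0.156 over all genes. Every mAktDKO mouse was lower than every control mouse for 14 of the 51 genes and higher for 3, against 16.6% and 14.6% of all genes.

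Calmodulin, the calcium sensor of the kinase, is encoded by several genes with the same protein. Calm3 was 251, 220 and 236 CPM in controls and 189, 161 and 171 CPM in mAktDKO animals. The groups did not overlap, and the log2 fold change was -0.44 (SE 0.092, adjusted p = 0.0540, edgeR). For Calm2, at 82.3 CPM in controls and 89.6 CPM in mAktDKO animals, it was 0.12, with overlapping groups. Neither passed edgeR's test at 0.05, and DESeq2's Wald test had Calm3 under 0.01. In edgeR, Calm3 was under 0.05 with no filter (381 of all genes passed) and with at least 10 counts in every mouse (264).

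Camk2n1, an inhibitor protein that binds the active kinase, was 11.7, 8.10 and 10.2 CPM in controls and 14.0, 16.0 and 17.5 CPM in mAktDKO animals. Here all mAktDKO mice were above all control mice, with a log2 fold change of 0.66 (SE 0.151, adjusted p = 0.0602, edgeR), which did not pass 0.05. DESeq2's Wald test had it under 0.05. By edgeR it was under 0.05 with library totals (210 of all genes passed), with no filter (381) and without control mouse 2 (145). The second inhibitor, Camk2n2, was near the floor, at 0.930 and 0.915 CPM. Among the phosphatases that act on the kinase and the proteins that anchor it, 0 of 8 tested genes passed by edgeR or DESeq2 and 0 had an unadjusted p under 0.05. Ppm1e had no adjusted p by DESeq2. The smallest p belonged to Ppp1cb (log2 fold change -0.16), Ppp2cb (-0.18) and Ppp1ca (-0.10).

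Of 13 listed genes for other calmodulin-dependent kinases, 11 were tested, 1 fell by edgeR and 4 had an unadjusted p under 0.05. The median log2 fold change of the 11 was 0.16, with 6 above and 5 below 0. Without mAktDKO mouse 1, 2 or 3 or control mouse 2, a further gene passed the filter and the median was between -0.11 and -0.03. Mylk4, a muscle kinase of the myosin light-chain kinase family, was 575, 545 and 490 CPM in controls and 313, 264 and 335 CPM in mAktDKO animals. The highest mAktDKO mouse was well below the lowest control mouse, and the mean was 56.6% of the control mean. The log2 fold change was -0.82 (SE 0.110, adjusted p = 0.0206, edgeR). This call was lost without any 1 of the mAktDKO mice and without control mouse 3, and was kept without control mouse 2 or 4.

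The other kinases did not pass in edgeR, while DESeq2 also had Mylk2 under 0.05. Mylk2, the skeletal myosin light-chain kinase, had a log2 fold change of -0.52 with overlapping groups, since control mouse 2 was at 747 CPM and the other 2 control mice at 469 and 520 CPM, and the mAktDKO mice at 350 to 477 CPM. Without control mouse 2 it was -0.29. Phkg1, the catalytic subunit of muscle phosphorylase kinase, was at -0.24, without overlap. Camkk1 and Camkk2, the kinases upstream of Camk1 and Camk4, were at 0.22 and 0.39, the first at 0.05 without control mouse 2 and 0.44 without control mouse 4. Camk4 was a low gene, at 0.979, 1.68 and 4.61 CPM in controls and 2.35, 8.45 and 2.26 CPM in mAktDKO animals.

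Among 16 genes of the sarcoplasmic reticulum calcium cycle, which makes and clears the calcium signal read by the kinase, 0 passed 0.05 by edgeR and 6 had an unadjusted p under 0.05. The median log2 fold change was -0.07, with 6 above and 10 below 0, and with library totals it was 0.06, with 9 above 0. Without mAktDKO mouse 3 it was -0.16, with 4 above 0, and without control mouse 3 it was -0.03, with 8 above 0. Jph2, which ties the reticulum to the transverse tubules, was 796, 741 and 759 CPM in controls and 595, 520 and 599 CPM in mAktDKO animals, which is a log2 fold change of -0.42 (SE 0.090, adjusted p = 0.0562). DESeq2's Wald test put Jph2, and 0 of the other 15 genes, under 0.05, but it gave Ryr3, Pln and Sln no adjusted p. Jph2 was also under 0.05 by edgeR with no filter (381 of all genes passed) and with at least 10 counts in every mouse (264). Casq2, a calsequestrin that stores calcium, was at -0.39 and Hrc, a calcium-binding protein of the reticulum lumen, at -0.26, both without overlap. The release channel Ryr1 was at -0.30, with overlapping groups (-0.19 without control mouse 2), and the calcium pump Atp2a1 at -0.22, without overlap. Above 0, and named after their values were seen, were the slow-type pump Atp2a2 at 0.35, the release channel Ryr3 at 0.40 and triadin, Trdn, at 0.22, all with overlap. Ryr3 ran from 0.13 without mAktDKO mouse 3 to 0.85 without control mouse 2, and Atp2a2 from 0.22 without mAktDKO mouse 2 to 0.51 without mAktDKO mouse 3.

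Among 11 nuclear and metabolic genes tied to CaM kinase signaling, 0 passed 0.05 by edgeR or DESeq2 and 3 had an unadjusted p under 0.05. The median was -0.15, with 4 above and 7 below 0. With library totals it was -0.02, with 5 above 0, and without 1 mouse it ran from -0.20 (mAktDKO mouse 3) to -0.06 (mAktDKO mouse 1) and was -0.08 without control mouse 2. Hdac5, a class II deacetylase that the kinases export from the nucleus, was 87.3, 60.8 and 59.8 CPM in controls and 54.9, 54.8 and 56.5 CPM in mAktDKO animals, which is a log2 fold change of -0.32. Control mouse 2 stood apart, and without it the log2 fold change was -0.12. Hdac4 was at -0.18, and at -0.08 without that mouse. The transcription factors Creb1 and Mef2d were at 0.25 and -0.26, without overlap, in opposite directions. Without control mouse 2 they were at 0.17 and -0.16. Ppargc1a, the coactivator of mitochondrial genes, was at 0.24, and Slc2a4, the insulin-regulated glucose transporter, at -0.16, both with overlap. Slc2a4 ran from -0.25 without control mouse 3 to 0.01 without control mouse 2, and Ppargc1a from 0.09 without mAktDKO mouse 3 to 0.43 without mAktDKO mouse 2.

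**Figure D4:**
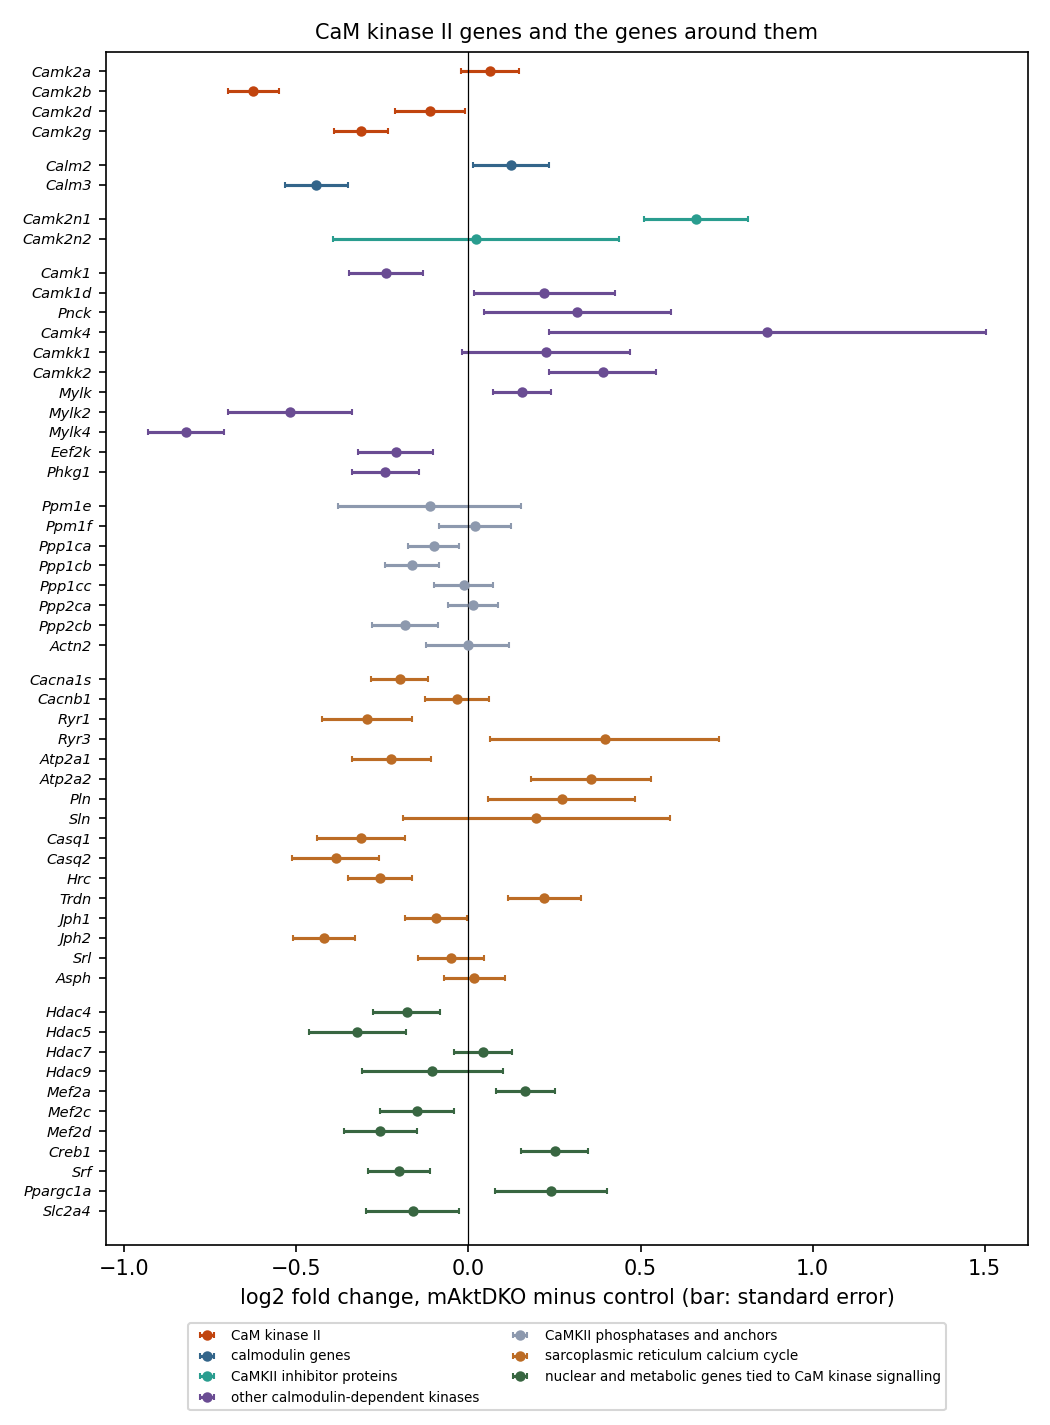
Log2 fold change (mAktDKO minus control) with its standard error for the 4 CaM kinase II genes and 50 of the tested genes of the pathway lists, colored by list. Mylk4 at -0.82 is the 1 pathway gene with an adjusted p under 0.05. Camk2b at -0.63 and Calm3 at -0.44 lie left of 0, and Camk2n1 at 0.66 lies right of it.

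Of the markers of other cells, 0 passed 0.05 by edgeR in any list, and DESeq2 called 1, the fibroblast gene Dcn. Some of these markers, among them Lep, Cd68, Cd14, Pax7, Myf5 and Calcr, had no adjusted p by DESeq2. By edgeR, Dcn was under 0.05 with library totals (210 of all genes passed), no filter (381) and at least 10 counts in every mouse (264). It was also under 0.05 without control mouse 4 (388). The unadjusted p was under 0.05 for 2 fibroblast, 3 adipocyte, 2 macrophage, 1 satellite cell, 1 nerve and Schwann cell, 1 endothelial and 0 smooth muscle markers. The fibroblast markers summed to 18300 to 21700 CPM in the mAktDKO mice and 7280 to 18400 CPM in the control mice, with 5 of 5 above 0 and a median of 0.57. Without control mouse 2, 4 of 5 were above 0 and the median was 0.22, and without mAktDKO mouse 2 the median was 0.28. Without control mouse 2 the macrophage median given next was 0.13 and the satellite cell median 0.20, and without control mouse 3 they were 0.62 and 0.59. The 4 adipocyte markers were above 0, with a median of 1.10 (0.68 without mAktDKO mouse 2) and sums of 19.7 to 66.5 against 13.8 to 33.1 CPM. Macrophage markers had a median of 0.37 (4 of 5 above 0, 74.4 to 96.8 against 49.5 to 83.8 CPM) and satellite cell markers one of 0.33 (4 of 4, 14.4 to 18.3 against 10.6 to 15.7 CPM). Nerve and Schwann cell markers had a median of 0.24 (4 of 5 above 0, 237 to 323 against 216 to 254 CPM), and the neuronal genes Nefl and Tubb3 were too low to be tested, with at most 2 and 8 counts in a mouse. The medians of smooth muscle (-0.07, 1 of 5 above 0, 262 to 353 against 299 to 307 CPM) and endothelial markers (0.05, 3 of 5 above 0, 452 to 551 against 388 to 515 CPM) were 0.06 and 0.19 with library totals. Both changed with 1 mouse: without mAktDKO mouse 1 they were -0.24, with 0 of 5 above 0, and -0.07, the smooth muscle median was 0.03 without control mouse 4, and the endothelial median was 0.16 without control mouse 3 and -0.04 without control mouse 4. The part of these markers in the CaM kinase II values was not tested either.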

How the data were processed

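EDL of 3 control floxed and 3 mAktDKO mice was profiled by RNA sequencing. The deposited values are estimated counts (expected counts) per gene, which the authors made from rRNA-depleted, strand-specific libraries. Reads were mapped to mm10 with STAR (version 2.6.1b in the submitters' processing notes, a different version in the paper's methods) and counted with RSEM 1.3.1. The annotation and the strand setting of the counting are not given in the sources used here. RSEM divides reads that fit several genes. Of the 24411 genes in the table, 3.36% to 4.09% had a non-integer value in a given mouse, which is a share of genes and not of reads.

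The estimated counts were rounded, filtered with filterByExpr (minimum count 10) and normalized by TMM, and the genotypes were compared by the quasi-likelihood test of edgeR 4.0.16 in R 4.3.3, with Benjamini-Hochberg adjustment over 12892 genes. The standard error is the log2 fold change divided by the square root of F. Correlations used log2 CPM with a prior count of 2. Steps were tested on simulated data. The edgeR p-values set the genotype difference against the variation between these 3 and 3 mice, estimated with information shared across genes. Each SD is over the 3 mice of a group. No 2 mice had counts that agreed within sampling noise.

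The genes and lists were chosen with earlier results of these data known. Named are the CaM kinase II genes, Akt1, Akt2, a set of calmodulin, inhibitor, kinase and target genes, in each other pathway list those past 0.05 and at most the 3 with the smallest p, in cell type lists at most the 3 highest per length and those past 0.05, and for each CaM kinase II gene the 3 most like it. 1 gene of that set is not reported here, and most cell type lists are given by their counts, medians and sums without naming their genes. Gene models are from GENCODE M21 and promoters from RefSeq. Alternatives were other scalings, DESeq2 1.42.0, other filters, other transcript lengths, and leaving out each mouse.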

Additional observations from a re-analysis of the deposited data

How the results depend on the processing

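When raw library totals replaced TMM, the median of all genes moved from 0.017 to 0.156, and the log2 fold changes were 0.197 for Camk2a, -0.487 for Camk2b, 0.026 for Camk2d (direction turned) and -0.178 for Camk2g. Relative to that median they were 0.04, -0.64, -0.13 and -0.33, against 0.05, -0.64, -0.13 and -0.33 with TMM. The summed level had a log2 ratio of 0.055 with library totals (direction turned), -0.197 with the longest transcripts and -0.396 without Camk2a. Of all genes, 3 passed 0.01 and 152 passed 0.05. DESeq2's Wald test called 341 and 786, edgeR with no filter 32 and 381, and 264 passed 0.05 with at least 10 counts in every mouse. Of the pathway genes, where 0 and 1 passed, DESeq2's Wald test called 3 at 0.01 and 5 at 0.05, no filter gave 1 and 4, at least 10 counts in every mouse gave 3 at 0.05, and library totals gave 2 at 0.05, where 210 of all genes passed. The cause of these shifts was not tested.

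Without 1 mouse at a time, the log2 fold change ranged from -0.015 to 0.102 for Camk2a (below 0 without mAktDKO mouse 3), from -0.664 to -0.603 for Camk2b, from -0.197 to -0.026 for Camk2d and from -0.379 to -0.281 for Camk2g, and the log2 ratio of the summed level from -0.131 to -0.053. Pathway genes past 0.05 numbered 0 to 2, all genes past 0.01 0 to 8 (8 without control mouse 2, 0 without any 1 mAktDKO mouse), and all genes past 0.05 3 to 388 (3 to 5 without 1 mAktDKO mouse, 26 without control mouse 3, 388 without control mouse 4). No paired analysis was possible because the numbers of the control columns differ from those of the labeled control samples, so no number links a control mouse to an mAktDKO mouse. With 3 mice in a group, a p that misses the threshold does not show that levels were alike.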
